A study of Homo sapiens with 6 samples.

Results

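The genes described here are 42 genes of the integrated stress response and of the endoplasmic reticulum (ER) stress response, chosen by symbol from the 56305 genes counted in each library. They comprise 22 genes of the ATF4/CHOP branch (DDIT3 to CTH in the order of the list) and 20 genes of the ATF6/XBP1 branch (HSPA5 to CRELD2), and all 42 were expressed highly enough to be tested. The cells were MOLM13, an acute myeloid leukemia line that carries a FLT3 internal tandem duplication and the t(9;11)(p22;q23) translocation, so every library came from the same genotype. They were exposed for 24 h either to the vehicle DMSO (3 libraries, whose treatment label reads 1 μM DMSO) or to 1 μM ZW27941 (3 libraries), a chimeric molecule that recruits the ubiquitin ligase VHL to METTL3, the catalytic subunit of the m6A RNA methyltransferase. Only this cell line, this dose and this time were sequenced, and no compound unable to recruit VHL was among the libraries. Nothing in the labels says that the 3 libraries of a group came from separate cultures, so the p-values measure the spread between these libraries, which may be technical.

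Both responses restore balance when protein synthesis and protein folding are out of step. In the integrated stress response, the kinases PERK, GCN2, HRI and PKR phosphorylate the initiation factor eIF2α, which lowers general translation but favours translation of the ATF4 mRNA, and ATF4 then activates genes of amino acid import, amino acid synthesis and tRNA charging together with DDIT3, which encodes the transcription factor CHOP. In the unfolded protein response of the ER, cleavage of ATF6 and splicing of the XBP1 mRNA by IRE1 (encoded by ERN1) produce transcription factors that raise ER chaperones, folding enzymes and the machinery of ER-associated degradation. Counts per gene show neither the translation of ATF4, nor the splicing of XBP1, nor the cleavage of ATF6, and no protein was measured in these libraries.

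Most genes of the ATF4/CHOP branch were lower on ZW27941, and more genes of the ER branch were higher than lower. In the ATF4/CHOP branch, 15 of 22 genes were lower on ZW27941, 2 were higher and 5 did not pass the test (edgeR's quasi-likelihood test, Benjamini-Hochberg adjusted p under 0.05 over all genes tested). Among all 20399 genes tested, 30.1% passed in either direction, 13.8% as lower and 16.3% as higher, against 68.2% lower in this branch. In the ER branch, 10 of 20 genes were higher, which is 50.0% against the background of 16.3%, 4 were lower and 6 did not pass. The median log2 fold change was −0.23 in the ATF4/CHOP branch and 0.083 in the ER branch, beside −0.0019 over all genes tested. The changes were modest in size: 9 of the 22 and 4 of the 20 genes moved by more than 0.25 on the log2 scale, beside 23.9% of all genes tested, and the ranges were −0.79 to 0.18 and −0.18 to 0.60.

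**Figure D1:**
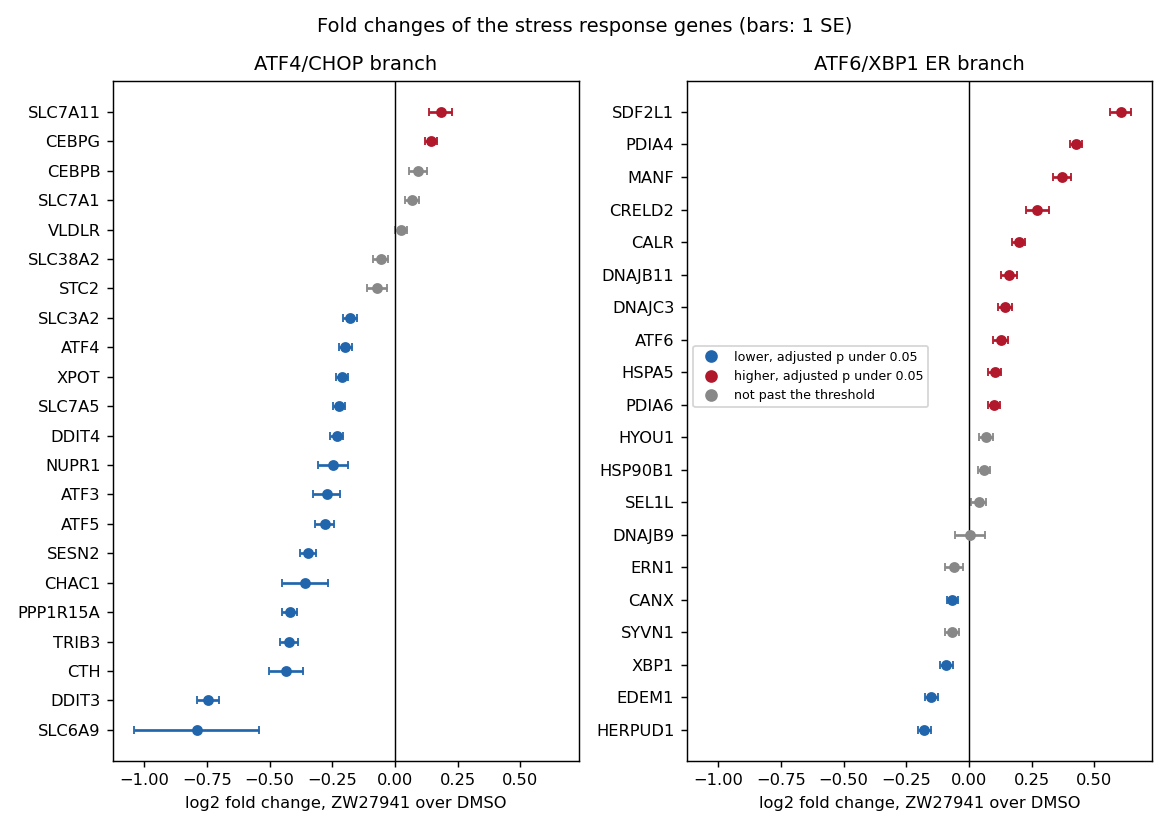
Log2 fold change of each gene, ZW27941 over DMSO, with bars of 1 SE from edgeR (3 libraries per group), ordered within each branch. Blue points passed the test as lower, red points as higher, and grey points did not pass; 15 of the 22 ATF4/CHOP points are blue and 10 of the 20 ER points are red.

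The medians of the branches were alike in the 3 libraries of each group. With each gene set to its mean in DMSO, the median over the 22 ATF4/CHOP genes lay at −0.23, −0.21 and −0.22 (log2) in ZW27941 replicates 1 to 3, and at −0.024, 0.029 and −0.00071 in DMSO replicates 1 to 3. The median over the 20 ER genes lay at 0.092, 0.066 and 0.083 in the ZW27941 libraries and at 0.0067, −0.0029 and −0.0053 in the DMSO libraries. No ZW27941 library reached the DMSO libraries in either branch. Gene by gene, all 3 ZW27941 libraries lay below all 3 DMSO libraries for 16 of the 22 ATF4/CHOP genes and for 5 of the 20 ER genes, where 19.9% of all genes tested did so. They lay above all DMSO libraries for 3 of the 22 and for 11 of the 20 genes, where 21.7% of all genes tested did so.

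**Figure D2:**
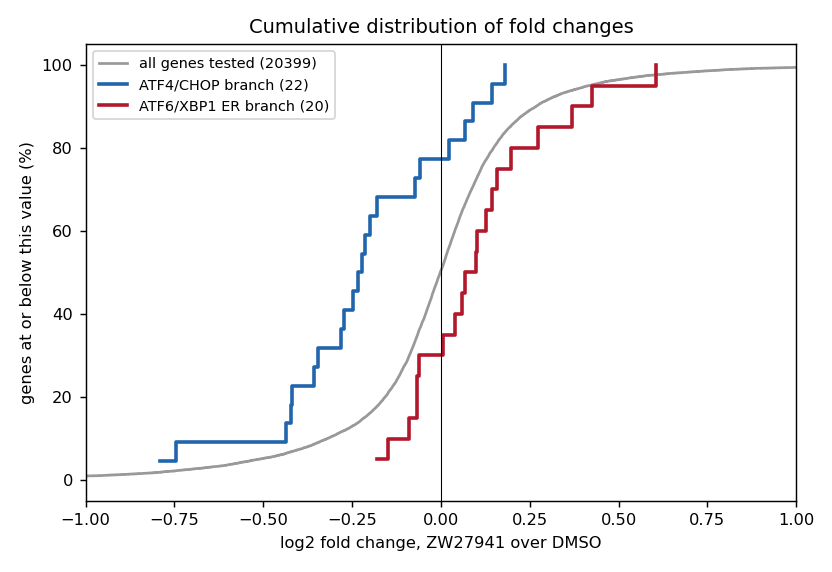
Cumulative share of genes (%) at or below each log2 fold change, ZW27941 over DMSO, for all 20399 genes tested (grey), the 22 ATF4/CHOP genes (blue) and the 20 ER genes (red), shown from −1 to 1. The blue curve starts at −0.79, below which some of all genes tested already lie, and ends at 0.18, and the medians of the blue and red curves are −0.23 and 0.083.

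The libraries held 143454176 to 178744976 counts on genes and 229503413 to 287628269 tallied reads, more than the 50M raw reads per sample that the labels plan, and the sources used here do not say why. MOLM13 markers were present, with 9 of 10 myeloid and leukemia genes above 10 CPM (the reads of a gene relative to all reads on genes, after TMM scaling) in both groups and the monocyte gene CD14 at 1.54 CPM in DMSO and 1.17 CPM on ZW27941. Of these 10 genes, 5 were called higher on ZW27941 (CSF1R by 0.40, SPI1 by 0.11, ITGAM by 0.10, MPO by 0.093 and PTPRC by 0.074, log2) and CD14 was called lower (−0.39). Their summed level was 1653 to 1690 CPM in DMSO and 1718 to 1736 CPM on ZW27941, and the part of this shift in the changes of the 42 genes was not tested. Of 9 genes of other cell types, 8 were at no more than 1.1 CPM and PECAM1, which myeloid cells also express, was at 259 CPM in DMSO and 327 CPM on ZW27941. ZW27941 replicate 3 stood apart in reads aligned to several places, which made up 5.25% of its tallied reads against at most 4.07% in any DMSO library. The share of reads outside annotated features also differed between the groups without overlap, at 11.9% to 12.4% in DMSO and 10.5% to 11.4% on ZW27941, and its part in the results was not tested. Leaving ZW27941 replicate 3 out ended the call of 0 of the 42 genes and added those of SLC7A1 and SEL1L. The METTL3 transcript was at 122 CPM in DMSO and 123 CPM on ZW27941 (adjusted p = 0.765), and since the compound acts on the protein, this does not check the treatment. In RNA from a whole culture, a lower level per cell and fewer cells with the transcript cannot be told apart.

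DDIT3, which encodes CHOP, fell the most among the members with more than 100 reads in every library. It was at 27.9, 32.0 and 32.0 CPM in the DMSO libraries and at 17.4, 18.7 and 18.8 CPM on ZW27941, so that the groups were far from overlapping. The mean dropped from 30.6 ± 2.35 to 18.3 ± 0.746 CPM (SD, n = 3), a log2 fold change of −0.74 ± 0.044 (SE; adjusted p = 6.03e-11), which ranked 21 by p among all genes tested. DDIT3 shares 39.6% of its annotated exon bases with neighbours on chromosome 12, and the strand setting of the counting is not given in the sources used here. The neighbours are MARS and MBD6 on the other strand and AC022506.1 on the same strand. The part of each in the shared bases was not counted. MARS changed by −0.09 and MBD6 by −0.004 on the log2 scale, the first passing the test and the second not.

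ATF4, the transcription factor that stands above DDIT3, fell by a smaller fold. Its level was 379, 389 and 388 CPM in DMSO and 327, 337 and 344 CPM on ZW27941, with a log2 fold change of −0.20 ± 0.025 (SE; adjusted p = 3.8e-06). The groups did not overlap, and the mean fell by 12.8%, whereas that of DDIT3 fell by 40.3%. ATF3, a stress-induced repressor and activator of the same family, was at 9.99, 10.7 and 9.81 CPM in DMSO and at 8.14, 9.01 and 8.12 CPM on ZW27941, a log2 fold change of −0.27 ± 0.055 (adjusted p = 0.000632). ATF5, whose translation is controlled like that of ATF4, and NUPR1, a small stress-induced chromatin protein, also fell, with log2 fold changes of −0.28 ± 0.039 and −0.25 ± 0.059. ATF5 shares 23.7% of its exon bases with other genes.

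Among the C/EBP factors of the branch, none fell. CEBPG, a dimer partner of ATF4, was at 140, 140 and 142 CPM in DMSO and at 155, 153 and 158 CPM on ZW27941, all above the DMSO libraries. Its log2 fold change was 0.14 ± 0.024 (SE; adjusted p = 0.000105). CEBPB, a factor of myeloid differentiation and of the stress response, was also above the DMSO libraries in every ZW27941 library, at 20.1 to 21.8 CPM against 18.9 to 20.0 CPM, but its change of 0.092 ± 0.037 did not pass the test (adjusted p = 0.0677). Of the 7 transcription factors of this branch, 5 fell (71.4%), 1 rose (14.3%) and 1 did not pass. Over all genes tested, 13.8% were lower and 16.3% higher, so the share that rose was near that of all genes.

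The 5 genes listed as brakes and feedback (PPP1R15A, TRIB3, CHAC1, DDIT4 and SESN2) fell, where 13.8% of all genes tested were lower. The list is a choice: PPP1R15A and TRIB3 act on eIF2α, ATF4 or CHOP, and the others on mTORC1 or glutathione. DNAJC3, counted with the co-chaperones, also encodes an inhibitor of PERK, and it rose. PPP1R15A encodes GADD34, the phosphatase subunit that removes the phosphate from eIF2α. It was at 65.4, 70.0 and 68.5 CPM in DMSO and at 49.0, 52.1 and 51.5 CPM on ZW27941, with no overlap and a log2 fold change of −0.42 ± 0.031 (SE; adjusted p = 1.77e-09). TRIB3, a pseudokinase that CHOP induces and that inhibits ATF4 and CHOP in turn, dropped from 34.1, 37.6 and 35.9 CPM to 25.9, 27.3 and 27.1 CPM, a log2 fold change of −0.42 ± 0.035 (adjusted p = 1.3e-08). By the fitted fold changes, PPP1R15A fell by 25.2% and TRIB3 fell by 25.4%.

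SESN2, which encodes a leucine-sensing inhibitor of mTORC1, was at 23.3, 24.1 and 23.3 CPM in DMSO and at 18.5, 18.5 and 18.6 CPM on ZW27941, a log2 fold change of −0.35 ± 0.032 (SE; adjusted p = 6.63e-08). Its spread between the ZW27941 libraries was small, with an SD of 0.064 CPM. DDIT4, another inhibitor of mTORC1, known as REDD1, was at 621 to 654 CPM in DMSO and at 533 to 557 CPM on ZW27941, and fell by 0.23 on the log2 scale. DDIT4 shares 41.2% of its exon bases with DDIT4-AS1 on the other strand, and their reads cannot be told apart without strand. CHAC1, an enzyme that degrades glutathione, had the fewest reads of the 5, at 1.99, 2.15 and 2.00 CPM in DMSO and 1.55, 1.69 and 1.55 CPM on ZW27941. Its 244 to 324 reads per library gave a log2 fold change of −0.36 ± 0.091 (adjusted p = 0.00456), with no overlap between the groups.

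Amino acid transporters were divided. SLC7A5 and SLC3A2 encode the light and heavy chain of LAT1, the exchanger that imports leucine and other large neutral amino acids, and both fell. SLC7A5 was at 197, 204 and 199 CPM in DMSO and at 172, 171 and 171 CPM on ZW27941, a log2 fold change of −0.22 ± 0.024 (SE; adjusted p = 4.01e-07), and SLC3A2 changed by −0.18 ± 0.027 (adjusted p = 2.66e-05). SLC7A11 encodes the light chain that pairs with the same SLC3A2 protein to import cystine, and it rose: 25.3, 22.6 and 22.9 CPM in DMSO against 28.5, 26.8 and 25 CPM on ZW27941, a log2 fold change of 0.18 ± 0.044 (adjusted p = 0.00336). DMSO replicate 1 lay above ZW27941 replicate 3 for SLC7A11, so the groups overlapped.

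The glycine transporter SLC6A9 had the largest fold change of the branch and the least certain one. It was at 0.335, 0.590 and 0.307 CPM in DMSO and at 0.25, 0.243 and 0.219 CPM on ZW27941, which is 35 to 89 reads per library. Its log2 fold change of −0.79 ± 0.25 (SE; adjusted p = 0.0187) rested on DMSO replicate 2, without which it was −0.43 with an adjusted p of 0.239. The arginine and lysine transporter SLC7A1, at 131 to 136 CPM in DMSO and 136 to 144 CPM on ZW27941, did not pass the test (log2 fold change 0.068, adjusted p = 0.0576), though it did without ZW27941 replicate 3 (0.084, adjusted p = 0.0118). SLC38A2, a carrier of small neutral amino acids, overlapped between the groups at 180 to 192 and 171 to 183 CPM (log2 fold change −0.058, adjusted p = 0.143).

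The 4 remaining ATF4 targets fell or did not pass. CTH, the cystathionine gamma-lyase that splits cystathionine to yield cysteine, was at 4.65, 4.97 and 4.83 CPM in DMSO and at 3.62, 3.45 and 3.62 CPM on ZW27941, a log2 fold change of −0.43 ± 0.069 (SE; adjusted p = 4.96e-05). XPOT, the tRNA exporter, was at 430 to 440 CPM in DMSO and at 368 to 380 CPM on ZW27941, a log2 fold change of −0.21 ± 0.024 (adjusted p = 9.42e-07). Neither gene overlapped between the groups. The lipoprotein receptor gene VLDLR (0.024, adjusted p = 0.502) and the secreted glycoprotein gene STC2 (−0.072, adjusted p = 0.2) did not pass.

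**Figure D3:**
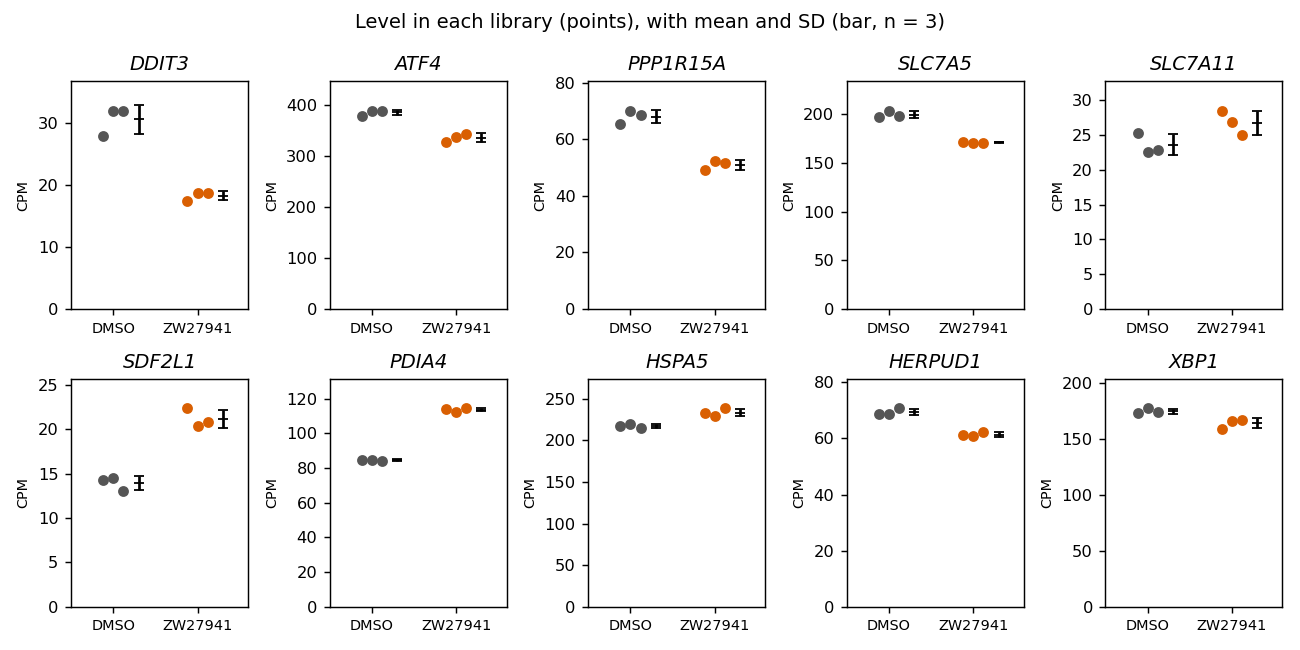
Level in CPM (vertical axes start at 0) of 5 genes of the ATF4/CHOP branch (top) and 5 of the ER branch (bottom) in each library, grey for DMSO and orange for ZW27941, with a bar for mean and SD (n = 3). All 3 orange points of DDIT3 lie at 17.4 to 18.8 CPM, under the grey points at 27.9 to 32.0 CPM, and those of PDIA4 at 112 to 114 CPM over 84.0 to 84.8 CPM; SLC7A11 is the panel in which the groups overlap.

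ATF4 binds DNA as a dimer with C/EBP factors at a composite element, and the promoters of the members were searched for it in its loose form, TGATGNAAN, on both strands of the 250 bases before and 50 after each start in the RefSeq annotation of GRCh38.p14. In total, 40 of the 42 genes had an entry, NUPR1 and SLC7A11 being the others. The element was found in 5 of the 20 ATF4/CHOP genes with an entry (ATF3, CHAC1, CEBPG, SLC3A2 and SLC7A1) and in 3.61% of all 35116 promoters. A gene counted if any of its promoters held the element, so these are unlike units. Counted by gene, 309 of the 10748 tested genes with an entry held it. Its strict form, TGATGNAAT, is a subset that 0 members held. Of the 5 genes with the element, 3 fell, CEBPG rose and SLC7A1 did not pass. Over all tested genes with a promoter entry, 16.2% of the 309 with the element were lower on ZW27941, beside 16.6% of all 10748. The stretches of the 3 members with the element that changed the most are given here from RefSeq (GRCh38.p14, plus strand, 5′ to 3′), with the element in capitals, at chr15:40953236-40953294 for CHAC1, chr1:212565191-212565249 for ATF3 and chr11:62881725-62881748 for SLC3A2. In CHAC1 and SLC3A2 the element is read on the minus strand, and in SLC3A2 it lies after the start.
CHAC1: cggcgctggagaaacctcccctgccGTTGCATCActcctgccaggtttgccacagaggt
ATF3: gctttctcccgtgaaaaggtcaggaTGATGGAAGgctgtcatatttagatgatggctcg
SLC3A2: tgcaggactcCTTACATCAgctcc
A match of letters is a description of the sequence, and a promoter without one lacks only these letters in this window.

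In the ER branch, the genes that rose most encode proteins that fold or retain other proteins in the ER lumen. SDF2L1, a partner of the chaperone BiP and its cofactors, was at 14.3, 14.5 and 13.1 CPM in DMSO and at 22.3, 20.4 and 20.9 CPM on ZW27941. The groups were well apart, with means of 14.0 ± 0.757 and 21.2 ± 1.03 CPM (SD, n = 3) and a log2 fold change of 0.60 ± 0.043 (SE; adjusted p = 1.14e-09), a rise of 52.0%. PDIA4, a disulfide isomerase, had the lowest p of the 42 genes and ranked 16 among all genes tested. It was at 84.8, 84.7 and 84.0 CPM in DMSO and at 114, 112 and 114 CPM on ZW27941, a log2 fold change of 0.43 ± 0.024 (adjusted p = 3.33e-11).

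The secreted factors of the branch, which can stay in the ER or leave the cell, rose as well. MANF, a trophic factor that also binds BiP, was at 21.6, 20.8 and 20.4 CPM in DMSO and at 26.0, 27.3 and 27.9 CPM on ZW27941, a log2 fold change of 0.37 ± 0.035 (SE; adjusted p = 6.63e-08). CRELD2, an ER-resident protein with disulfide isomerase activity, was at 10.5, 10.8 and 10.1 CPM in DMSO and at 12.1, 13.0 and 12.9 CPM on ZW27941, a log2 fold change of 0.27 ± 0.046 (adjusted p = 0.000114). The groups did not overlap for either gene.

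HSPA5, which encodes BiP, the master chaperone of the ER and the usual readout of ER stress, rose by little. It was at 217, 220 and 215 CPM in DMSO and at 233, 229 and 238 CPM on ZW27941, so the groups did not overlap. The log2 fold change was 0.10 ± 0.024 (SE; adjusted p = 0.00285), a rise of 7.3%. Among the co-chaperones of BiP, DNAJB11 (0.16 ± 0.032, adjusted p = 0.000672) and DNAJC3 (0.14 ± 0.026, adjusted p = 0.000248) rose, and DNAJB9 was at 6.38 to 7.06 CPM in DMSO and 6.58 to 6.71 CPM on ZW27941 (log2 fold change 0.0050, adjusted p = 0.959). DNAJB11 shares 23.2% of its exon bases with other genes. The HSP90 of the ER, HSP90B1, was above DMSO in all ZW27941 libraries, at 1050 to 1060 CPM against 1000 to 1018 CPM, but did not pass (0.060, adjusted p = 0.0632), and the nucleotide exchange factor HYOU1 passed only without ZW27941 replicate 2 (0.068, adjusted p = 0.09, and 0.094, adjusted p = 0.0333, without it). Of the 7 chaperones and co-chaperones, 4 rose and 0 fell, where 16.3% of all genes tested were higher and 13.8% lower. With 7 genes, a count of 0 lower says little.

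The lectin chaperones of the calnexin cycle, which hold newly made glycoproteins, went different ways. CALR, the soluble calreticulin, was at 939, 942 and 905 CPM in DMSO and at 1058, 1034 and 1104 CPM on ZW27941, with no overlap and a log2 fold change of 0.20 ± 0.028 (SE; adjusted p = 1.26e-05). CANX, its membrane-bound counterpart calnexin, was at 633 to 637 CPM in DMSO and at 602 to 611 CPM on ZW27941, a log2 fold change of −0.066 ± 0.024 (adjusted p = 0.0378). The call of CANX was lost without any 1 of DMSO replicates 1, 2 and 3 or ZW27941 replicates 1 and 2, with log2 fold changes of −0.065, −0.064, −0.068, −0.060 and −0.072. PDIA6, a disulfide isomerase that shares 25.2% of its exon bases with ATP6V1C2, rose by 0.099 ± 0.024 (adjusted p = 0.00271).

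The sensors and their factors changed by small amounts in both directions. ATF6 was at 69.0, 66.0 and 67.4 CPM in DMSO and at 74.3, 75.9 and 70.6 CPM on ZW27941, a log2 fold change of 0.13 ± 0.029 (SE; adjusted p = 0.00224) without overlap. XBP1 was at 173, 177 and 174 CPM in DMSO and at 159, 166 and 167 CPM on ZW27941, a log2 fold change of −0.091 ± 0.026 (adjusted p = 0.00916), also without overlap. The call of XBP1 was lost without DMSO replicate 2 (−0.080, adjusted p = 0.0532) and without ZW27941 replicate 1 (−0.068, adjusted p = 0.0742). ERN1, at 17.6, 17.4 and 18.2 CPM in DMSO and 17.2, 17.4 and 16.4 CPM on ZW27941, did not pass the test (−0.061 ± 0.037, adjusted p = 0.232).

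Of the 4 genes of the degradation machinery, 2 fell and 2 did not pass. HERPUD1, a membrane protein of the retrotranslocation complex, was at 68.8, 68.8 and 70.6 CPM in DMSO and at 61.1, 60.7 and 62.2 CPM on ZW27941, a log2 fold change of −0.18 ± 0.026 (SE; adjusted p = 1.97e-05) with no overlap. EDEM1, which hands misfolded glycoproteins to degradation, fell from 152 to 162 CPM in DMSO to 138 to 144 CPM on ZW27941, a log2 fold change of −0.15 ± 0.027 (adjusted p = 0.000177). The ligase complex members SEL1L (0.039, adjusted p = 0.344) and SYVN1 (−0.068, adjusted p = 0.0835) did not pass, though SEL1L did without ZW27941 replicate 3 (0.069, adjusted p = 0.0441). Among the 13 chaperones, lectins, disulfide enzymes and secreted factors, 9 rose and 1 fell. Over all genes tested, 16.3% were higher and 13.8% lower. Against these shares, a count of 0 higher among 4 genes or of 1 lower among 13 says little. The difference between these groups of genes was not tested.

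Promoters of the ER branch were searched for elements of the ER stress response. The genes were chosen as known members of this response, so the matches are not independent of that choice. The ER stress element, CCAAT and CCACG with 9 bases between, was found on either strand in 7 of the 20 genes (HSPA5, HSP90B1, XBP1, PDIA6, CALR, CANX and CRELD2) and in 0.0769% of all 35116 promoters, which is 27 promoters. These 27 include the promoters of the members themselves. A gene counted if any of its promoters held the element, so shares of genes and of promoters are unlike units. Its second form, ATTGG and CCACG with 1 base between, was found in HERPUD1, SDF2L1 and HYOU1 and in 0.0541% of all promoters, and 0 of the 20 ATF4/CHOP genes with an entry held either. The UPR element, TGACGTGG, was in HYOU1 alone among the members, overlapping 1 of its 2 matches of the second form, and in 0.729% of all promoters. Genes with these elements did not share a direction: with the first form 4 rose, XBP1 and CANX fell and HSP90B1 did not pass, and with the second SDF2L1 rose, HERPUD1 fell and HYOU1 did not pass. Of all 17 tested genes with the first form, members included, 35.3% were higher and 29.4% lower. Of the 13 with the second form, 30.8% were higher and 30.8% lower. Among all 10748 tested genes with a promoter entry, 21.1% were higher and 16.6% lower. PDIA4 and MANF, which rose more than any gene with the first form, held 0 of these elements in this window.

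The stretches of the 3 genes with an element that rose the most, and of HERPUD1, which was added after its values were seen because it holds elements of both branches, are from RefSeq (GRCh38.p14, plus strand, 5′ to 3′). They lie at chr22:21642089-21642149 (SDF2L1), chr22:49918529-49918597 (CRELD2), chr19:12938359-12938427 (CALR) and chr16:56931940-56932060 (HERPUD1). Capitals mark both ends of the first form in CRELD2 and CALR, the second form in SDF2L1, and in HERPUD1 the composite ATF4 element followed by the second form; in SDF2L1, CRELD2 and CALR the element is read on the minus strand.
SDF2L1: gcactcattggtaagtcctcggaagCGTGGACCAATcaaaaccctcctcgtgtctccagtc
CRELD2: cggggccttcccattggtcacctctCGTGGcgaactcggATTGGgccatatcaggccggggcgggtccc
CALR: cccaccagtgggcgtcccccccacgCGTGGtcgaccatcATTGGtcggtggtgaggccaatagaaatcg
HERPUD1: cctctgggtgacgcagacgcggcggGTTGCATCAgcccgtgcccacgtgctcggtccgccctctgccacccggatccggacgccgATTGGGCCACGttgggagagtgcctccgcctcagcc
HERPUD1 was the only one of the 20 ER genes whose promoter held the composite element of the ATF4 branch, in the same letters as CHAC1 (GTTGCATCA) and, read on the other strand, as CEBPG. Of these 3 genes, HERPUD1 and CHAC1 were lower on ZW27941 and CEBPG was higher. The share of ER genes with the composite element, 5%, was near the 3.61% of all promoters, though genes and promoters are unlike units. Among all tested genes with that element, 16.2% were lower, beside 16.6% of all tested genes with an entry.

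Other genes of these pathways, from lists of known members, were set beside the 42. The lists were chosen with earlier results of these data known, so their counts are not independent of those results. Of 31 tested further targets of ATF4 and CHOP (amino acid synthesis, tRNA synthetases, apoptosis and secreted stress factors), 24 fell (77.4%) and 2 rose (6.5%), with a median log2 fold change of −0.13. Over all genes tested, 13.8% were lower and 16.3% were higher. ASNS, the asparagine synthetase, was at 48.7, 50.5 and 48.1 CPM in DMSO and at 37.3, 38.8 and 38.1 CPM on ZW27941, a log2 fold change of −0.37 ± 0.029 (SE; adjusted p = 5.59e-09). WARS, the tryptophanyl-tRNA synthetase, was at 167, 177 and 170 CPM in DMSO and at 132, 140 and 134 CPM on ZW27941, a log2 fold change of −0.34 ± 0.027 (adjusted p = 6.02e-09). The 2 that rose were ALDH18A1, of proline synthesis (0.12), and SARS, the seryl-tRNA synthetase (0.11), and the largest fall was that of the secreted factor GDF15, from 1.72 to 0.883 CPM (−0.96 ± 0.11), these 3 being named after their values were seen.

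Of 12 other genes upstream of ATF4 (the eIF2α kinases, eIF2α, phosphatase subunits other than PPP1R15A, and proteins that bind or activate the kinases or the phosphatase), 2 rose and 0 fell. The share that rose, 16.7%, was near that of all genes tested, 16.3%. EIF2AK1, which encodes HRI, was at 151 to 156 CPM in DMSO and 163 to 166 CPM on ZW27941 (log2 fold change 0.092 ± 0.024, adjusted p = 0.00568), and the adaptor NCK1 changed by 0.15 ± 0.035 (adjusted p = 0.00176). EIF2AK3, which encodes PERK, was at up to 16.9 CPM in DMSO and up to 16.1 CPM on ZW27941, overlapping, and did not pass (−0.039 ± 0.036, adjusted p = 0.456).

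Of 19 further folding enzymes of the ER, 7 rose (36.8%) and 2 fell (10.5%), where 16.3% and 13.8% of all genes tested did so, led by the disulfide isomerase PDIA3 (243 to 249 CPM in DMSO, 274 to 281 CPM on ZW27941, log2 fold change 0.18 ± 0.024, adjusted p = 9.44e-06) and the prolyl isomerase PPIB (0.15 ± 0.024, adjusted p = 3.85e-05). Of 16 further genes of ER-associated degradation, 2 rose, the segregase VCP (0.14 ± 0.024, adjusted p = 0.000135) and its adaptor UBXN4 (0.076 ± 0.024, adjusted p = 0.0195), and 0 fell, so that 12.5% rose. Of 17 genes of ER translocation, 4 fell (23.5%) and 2 rose (11.8%), with the signal peptidase subunit SPCS1 at −0.20 ± 0.026 (adjusted p = 5.47e-06) and the channel subunit SEC61A1 at 0.14 ± 0.024 (adjusted p = 0.000126). Of 12 tested regulators of the unfolded protein response, 3 rose and 3 fell (25.0% each), including MBTPS1, the protease that cleaves ATF6 (0.17 ± 0.025, adjusted p = 1.52e-05), and TXNIP, an inhibitor of thioredoxin (−0.20 ± 0.03, adjusted p = 2.66e-05). With so few genes in each of these lists, shares near those of all genes tested are not results about the lists.

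**Figure D4:**
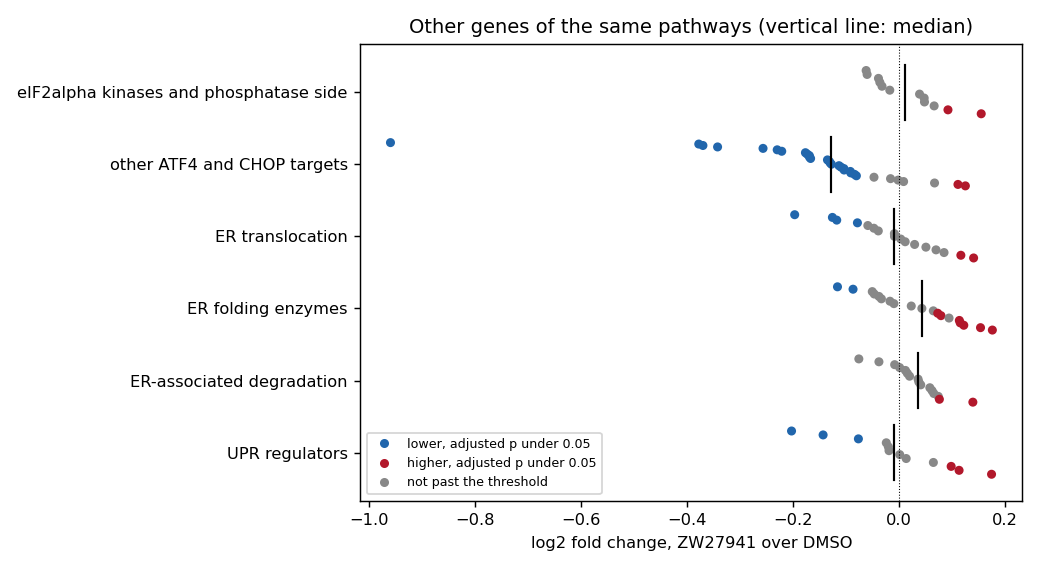
Log2 fold change, ZW27941 over DMSO, of each tested gene in 6 lists of other genes of the same pathways, coloured by the outcome of the test, with a vertical line at each list's median. The list of other ATF4 and CHOP targets has 24 blue points of 31 and a median of −0.13, and the list of ER folding enzymes has 7 red points of 19 and a median of 0.043. Over all genes tested, 13.8% were lower and 16.3% were higher.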

How the data were processed

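Per the submitters' processing notes, HISAT2, SAMtools 1.19.2, HTSeq 2.0.3 and the build hg38 were used, and the authors deposited whole-number read counts per gene symbol for each library, without normalization or filter. The strand setting and annotation are not given in the sources used here. HTSeq's tallies of unassigned reads, 37.4% to 39.8% of the reads tallied, were left out. The test was that of edgeR 4.0.16 in R 4.3.3 (TMM factors, filterByExpr, glmQLFit and glmQLFTest, no covariate), which tested 20399 of 56305 genes, with Benjamini-Hochberg adjustment over all of them and a threshold of 0.05. SE is the absolute log2 fold change divided by the square root of the F statistic. The steps were tested on simulated data, in which changes of genes with few counts were not all recovered. DESeq2 1.42.0 was an alternative. Promoters came from RefSeq (GRCh38.p14) and exon overlaps from GENCODE v29 (GRCh38).

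The members and the lists were chosen with earlier results of these data known. Log2 fold change, SE and adjusted p were given for main regulators and for the largest rises and falls past the threshold in each branch, up to 4 of each. The same was done for the 2 genes of each other list with the lowest p among those past it. For some of these genes, CPM was given as a range or left out. Between 191 and 336 of the genes tested had equal counts in a pair of libraries, so no library was a copy of another.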

Additional observations from a re-analysis of the deposited data

How the results depend on the processing

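Thinning every library to equal depth changed no call among the 42 members. Of the 31 members called, 28 kept their call in all 15 alternatives (3 normalizations, 2 tests, 2 filters, the replicate block, thinning to equal depth, and each of the 6 libraries left out in turn); SLC6A9, XBP1 and CANX did not, and CANX also lost it with library size only and with no filter. At the study's threshold (log2 fold change beyond ±1, with p under 0.05 before adjustment), applied here without the filter on low counts, 759 genes were called in place of 6149. The members called were 0 in each direction in either branch, with every member within ±1. The paper reports a larger number of genes at this threshold, and the reason for the difference was not tested. With upper quartile normalization, the median of all genes moved by −0.023 (log2), 57.9% of called genes were lower in place of 45.8%, the medians of the branches were −0.25 and 0.060, and DNAJB9 was at −0.019. With 1 library left out, the ER branch had 2 to 4 genes called lower and a median of 0.077 to 0.097, and DNAJB9 ran from −0.020 to 0.055. Beyond the changes with a library left out, SLC7A1 passed the test with library size only, DESeq2 and no filter, HSP90B1 with library size only and DESeq2, and SLC38A2 and SYVN1 with upper quartile normalization. The other counts of members called stayed within 1.5 times. With the replicate number as a replicate block, 6010 genes were called and all 42 members kept their call or lack of one. The numbers were not taken to pair the samples, since the deviations of libraries with the same number correlated at −0.0099, 0.0031 and 0.043 and not every library correlated best with the one of its number.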
